A study of Mus musculus with 4 samples.

Results

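Pelp1, Tex10, Wdr18, Senp3, Las1l, Nol9 and Mdn1 encode a nucleolar assembly that works on the precursor of the large (60S) ribosomal subunit. All 7 genes were represented on the array, by 19 of the 45037 probe sets that are not controls, and each gene's mean was 1 of 18193 gene means. A probe set, the array's unit of measurement, was taken as a member where the platform annotation gave 1 of these symbols as its gene, and no probe set listed with several genes named a member. The arrays compared mouse embryonic fibroblasts with and without Pf1 (encoded by Phf12), a PHD finger protein of Sin3 corepressor complexes, in a study of nucleolar integrity. The knockout group (Pf1 -/-) held lines 2 and 4 and the wild-type group (Pf+/+) lines 5 and 6 of the 7706 series, with 1 array per line.

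All 4 lines were grown from trypsin-dispersed torsos of embryos of 13.5 or 14.5 days, freed of head and red organs, in 10% fetal calf serum at 6% oxygen, and RNA was taken at passage 2 to 3. The sources used here do not give the embryonic day or passage of each line, the strain, the sex or the structure of the Pf1 allele. Where values of the lines stand in pairs, line 2 comes before line 4 and line 5 before line 6. Nothing in the labels says that each line came from an embryo of its own, so the p-values measure only the spread between these lines.

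Ribosomal RNA is made as a long precursor in which the internal transcribed spacer 2 (ITS2) separates sequences of the 60S subunit. Las1l is the endonuclease that cuts ITS2, and Nol9 is the polynucleotide kinase bound to it. Pelp1, Tex10 and Wdr18 form the scaffold that joins these enzymes to the pre-60S particle. Senp3, a SUMO protease of the nucleolus, removes SUMO from Pelp1 and from nucleophosmin, and Mdn1 is the large AAA ATPase that remodels the particle before export. Part of this set of proteins has also been described on chromatin.

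The promoter sequences below are those of Senp3 and Las1l, the members with the largest differences, and of the 3 members whose window held the E box CACGTG, the site letters of Myc and related factors. They come from RefSeq (GRCm38.p6) for the strand of the gene, 5′ to 3′. The first 4 run from 250 bases before the annotated start to 30 bases after it, and for Mdn1 a stretch of 30 bases downstream of the start is shown. Senp3 has 2 annotated starts, and the sequence shown is that of the first one listed. Capitals mark CACGTG.
Senp3, chr11:69682055-69682334, minus strand: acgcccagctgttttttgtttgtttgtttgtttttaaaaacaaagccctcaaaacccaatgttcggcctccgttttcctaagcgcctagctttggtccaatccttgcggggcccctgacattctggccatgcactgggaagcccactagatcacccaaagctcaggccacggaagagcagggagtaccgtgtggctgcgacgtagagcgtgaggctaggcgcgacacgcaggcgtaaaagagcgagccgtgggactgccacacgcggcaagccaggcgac
Las1l, chrX:95956874-95957153, minus strand: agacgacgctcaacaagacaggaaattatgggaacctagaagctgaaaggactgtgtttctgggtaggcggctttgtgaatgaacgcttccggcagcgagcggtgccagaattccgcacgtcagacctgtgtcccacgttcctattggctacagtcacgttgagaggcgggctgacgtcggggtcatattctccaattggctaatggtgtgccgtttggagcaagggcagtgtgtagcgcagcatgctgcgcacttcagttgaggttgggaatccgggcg
Pelp1, chr11:70410002-70410281, minus strand: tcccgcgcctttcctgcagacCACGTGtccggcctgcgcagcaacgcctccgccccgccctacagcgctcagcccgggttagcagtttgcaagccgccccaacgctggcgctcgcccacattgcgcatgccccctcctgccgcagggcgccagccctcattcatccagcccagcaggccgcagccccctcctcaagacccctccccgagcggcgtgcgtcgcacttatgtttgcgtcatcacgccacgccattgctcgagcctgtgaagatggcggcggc
Tex10, chr4:48473434-48473713, minus strand: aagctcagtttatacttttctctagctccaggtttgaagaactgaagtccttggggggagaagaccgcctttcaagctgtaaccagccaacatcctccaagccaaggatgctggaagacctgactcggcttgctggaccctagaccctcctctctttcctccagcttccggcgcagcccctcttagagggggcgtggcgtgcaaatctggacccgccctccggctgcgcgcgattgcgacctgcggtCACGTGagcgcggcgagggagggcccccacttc
Mdn1, chr4:32657139-32657168, plus strand: caacgtgaattccttcacCACGTGtgtgtc

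All 7 genes matched the RefSeq promoter table, with 9 windows of 300 bases (250 before and 50 after the start), since Senp3 and Nol9 had 2 annotated starts each. CACGTG, which reads the same on both strands, was found at -229 to -224 in Pelp1, at -3 to 3 in Tex10 and at 39 to 44 in Mdn1, counted from the start without a position 0. It was thus present in 3 of 7 members, against 8.09% of 27025 genes in the promoter table and 10.2% of the 14452 of them that are on the array. The Ets-type motif CCGGAAGT, searched on both strands, was found in Tex10 alone among the members (26 to 33), against 4.31% of genes in the table and 6.62% of those on the array, and did not overlap the E box. Senp3, Las1l, Wdr18 and Nol9 held neither string of letters in these windows. A match describes the letters and is not a site.

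In RefSeq, Senp3 and Pelp1 lie on chromosome 11, as does Phf12, the targeted gene. Tex10, Nol9 and Mdn1 lie on chromosome 4, Wdr18 on chromosome 10 and Las1l on the X chromosome. The span of Tex10 overlaps that of Invs, the span of Las1l that of Zc3h12b, and the span of Senp3 that of the long non-coding RNA gene Tnfsf13os. The sources used here do not say where the probe sets lie within these genes.

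Values are log2 signals, centred so that each probe set has a median of 0 over the 4 arrays. They show how far the lines lie from each other and hold no signal level, so members cannot be ranked by abundance and no probe set could be checked against background. Of 4 centred values the middle ones mirror each other around 0, which is a product of the centring. A difference is knockout minus wild type on the log2 scale with the standard error (SE) of the limma fit, for n = 2 lines per genotype. A gene or probe set was called at a limma p under 0.05 after Benjamini-Hochberg adjustment over all genes or all probe sets. An exact permutation test of 2 lines against 2 cannot give a two-sided p below 0.333 and was not used. In a bulk culture, fewer cells of a type and less RNA per cell cannot be told apart.

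Phf12 was lower in the knockout at probe set 1434922_at, with -0.37 and -0.41 in the knockouts against 0.56 and 0.37 in the wild types (limma adjusted p = 0.0213). Probe set 1453579_at showed no such separation, at -0.0047 and 0.0047 against 0.051 and -0.075 (limma adjusted p = 0.965). The gene mean of Phf12 over both was not called (-0.42, limma adjusted p = 0.0504). Whether either probe set lies in the deleted part was not given. Over all genes, 2212 were called, 947 of them higher and 1265 lower (6.95%) in the knockout, and the median difference was -0.0027. Fibroblast markers could not be checked for their level in centred data. Of 12 fibroblast markers, 0 rose and 7 fell (median -0.55), while 7 of 8 smooth muscle markers rose and 0 fell (median 0.82). Of 11 markers of cycling cells, limma called 0 (at an unadjusted p under 0.05, 5 were higher, with a median of 0.27). Of 8 macrophage markers it also called 0 (0 at an unadjusted p under 0.05), with list medians, set against the mean of the wild types, of 0.039 and 0.78 in the knockouts and 0.75 and -0.75 in the wild types. Endothelial markers had 1 higher and 2 lower of 8, epithelial markers 2 higher and 1 lower of 8, skeletal muscle markers 1 higher of 8, and erythroid markers 0 of 4 (0 at an unadjusted p under 0.05). These marker shifts stood beside every result below, and their part in the results was not tested.

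The transcripts of the 7 genes all stood higher in the knockout lines, as did 49.2% of all genes, but only the difference of Senp3 was called when probe sets were averaged per gene. Senp3 had 1 probe set, so nothing was averaged for it, whereas the other members had 2 to 5. The gene-mean differences ran from 0.17 (Wdr18) to 0.89 (Senp3), with a median of 0.31 against -0.0027 over all genes. The called share of members was 1 of 7, beside 5.21% of all genes called higher in the knockout. At an unadjusted p under 0.05, 6 of 7 members were higher, beside 14.3% of all genes. In all 7 members both knockout lines lay above both wild-type lines, an order found at 28.7% of all genes.

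Among the 19 probe sets, 4 were called, all higher in the knockout, beside 3.92% of all probe sets called in that direction. They belonged to Senp3, Las1l, Nol9 and Mdn1. Both knockout lines lay above both wild-type lines at 15 of the 19 (27.8% of all probe sets), below them at 2 (26.3%), and the genotypes overlapped at 2. The probe sets of Pelp1 and Tex10 were not called, although the genotypes did not overlap in any of them. With any 1 of the 4 lines omitted, none of the 19 probe sets was called, in fits that leave 1 line in a genotype.

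**Figure D1:**
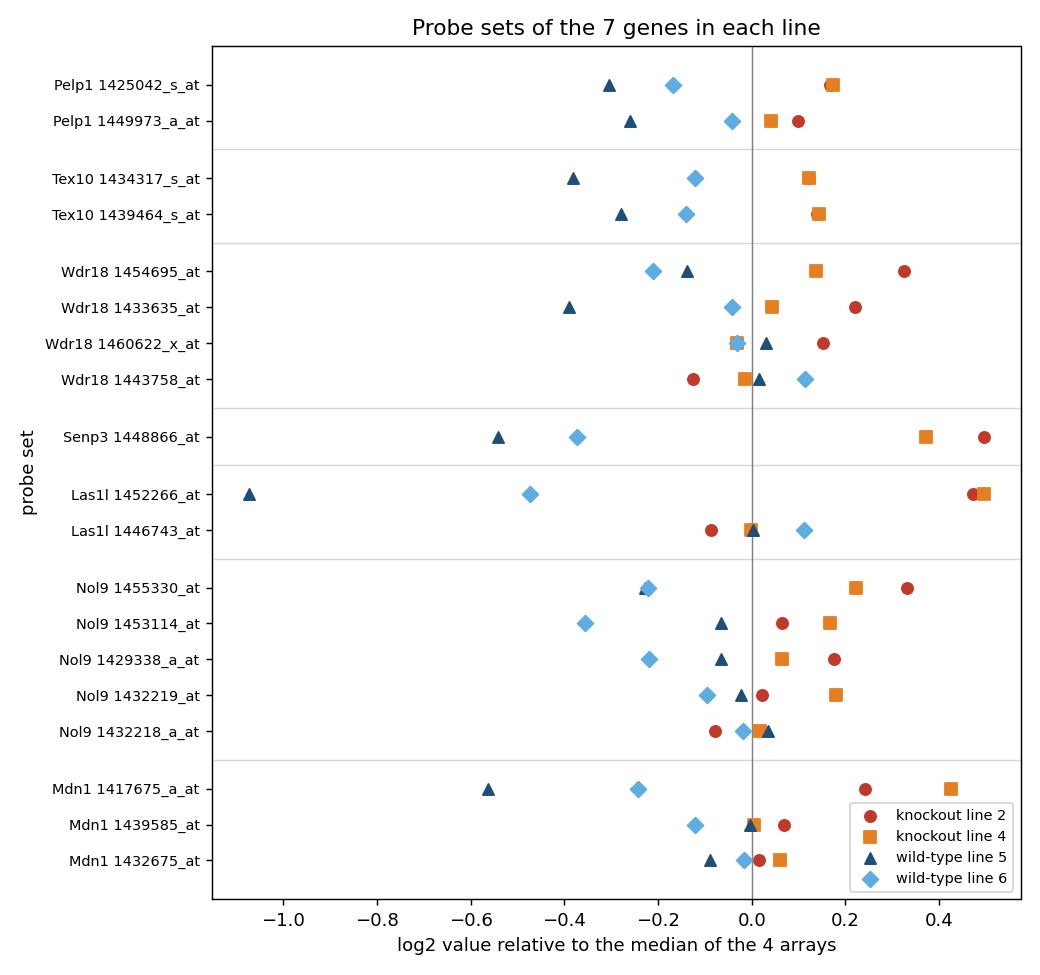
Centred log2 value (horizontal axis, relative to the median of the 4 arrays) of each of the 19 probe sets in the knockouts (lines 2 and 4: red circles, orange squares) and the wild types (lines 5 and 6: dark triangles, light diamonds), grouped by gene. The widest separation is that of Las1l 1452266_at, where wild-type line 5 stands at -1.07 and both knockout lines near 0.5, while Las1l 1446743_at and Wdr18 1443758_at show the opposite order at small distances.

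Senp3, the SUMO protease of the set, had 1 probe set, 1448866_at. Its values were 0.50 in knockout line 2, 0.37 in knockout line 4, -0.54 in wild-type line 5 and -0.37 in wild-type line 6. Both knockout lines were high and both wild-type lines low, and the gap between genotypes exceeded the gap within them (0.12 between the knockout lines and 0.17 between the wild-type lines). Senp3 transcript rose 1.85-fold (0.89 ± 0.103 SE, 95% interval 0.63 to 1.15, limma adjusted p = 0.0166 among genes and 0.0208 among probe sets). Its difference was larger than that of 98.7% of all genes. With any 1 line left out the difference lay between 0.81 and 0.98. Such fits have 1 residual degree of freedom. In each of them Senp3 lost its call, as did most of the genes called with all lines.

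Las1l, the ITS2 endonuclease, was measured by a pair of probe sets whose differences had opposite signs. Probe set 1452266_at stood at 0.47 and 0.49 in the knockouts, at -1.07 in line 5 and at -0.47 in line 6. It was the member probe set with the largest difference, 2.39-fold above the wild type (1.26 ± 0.206 SE, limma adjusted p = 0.0322). The knockout lines were nearly equal (gap 0.023), whereas the wild-type lines lay 0.60 apart, the widest gap among the 19 probe sets, with line 5 the lower of them.

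Probe set 1446743_at of Las1l stood at -0.086 and -0.0024 in the knockouts against 0.0024 and 0.11 in the wild types. The knockout lines were slightly lower here, and the difference was not called (-0.10, 95% interval -0.35 to 0.15, limma adjusted p = 0.611). The difference between the pair of probe sets was itself put to a test, in a fit over 30372 pairs of probe sets that share a gene. It was 1.36 in size (1446743_at minus 1452266_at, -1.36 ± 0.186 SE) and missed the threshold (limma adjusted p = 0.0535), in a fit that called 0.82% of all pairs. Averaged over both, Las1l stood at 0.19 and 0.25 in the knockouts against -0.54 and -0.18 in the wild types, and was not called (0.58 ± 0.138 SE, limma adjusted p = 0.0586).

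Nol9, the kinase partner of Las1l, had 5 probe sets. Probe set 1455330_at stood at 0.33 and 0.22 in the knockouts against -0.23 and -0.22 in the wild types. The wild-type lines were almost identical and both knockout lines lay above them. This probe set was 1.42-fold above the wild type (0.50 ± 0.0957 SE, limma adjusted p = 0.0426).

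The other Nol9 probe sets were not called, with differences of 0.33 (1453114_at), 0.26 (1429338_a_at), 0.16 (1432219_at) and -0.039 (1432218_a_at). Their limma adjusted p lay between 0.204 and 0.866, and the genotypes overlapped at 1432218_a_at. In 4 of the 5 Nol9 probe sets both knockout lines lay above both wild-type lines, an order found at 27.8% of all probe sets. These 5 probe sets measure 1 gene on the same arrays. The gene mean stood at 0.10 and 0.13 in the knockouts against -0.069 and -0.18 in the wild types. Nol9 was the member in which wild-type line 6, not line 5, was the lowest line. Its mean difference was 0.24 (95% interval 0.021 to 0.46, limma adjusted p = 0.141).

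Pelp1, the scaffold protein after which the complex is named, had 2 probe sets. Probe set 1425042_s_at stood at 0.17 in both knockout lines, at -0.30 in wild-type line 5 and at -0.17 in wild-type line 6. Probe set 1449973_a_at stood at 0.099 and 0.042 against -0.26 and -0.042. Both had the knockout lines on top, and in both wild-type line 5 was lowest. Their mean differed by 0.31 ± 0.0965 SE (1.24-fold, 95% interval 0.067 to 0.56), which was not called (limma adjusted p = 0.103).

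Tex10, a scaffold subunit of the same module, had 2 probe sets that nearly coincided. The gene mean stood at 0.13 in both knockout lines, 0.0029 apart, against -0.33 and -0.13 in the wild types. The spread of this gene lay almost wholly in the wild-type group. The differences of the probe sets were 0.37 (1434317_s_at) and 0.35 (1439464_s_at), and the mean of 0.36 ± 0.101 SE was not called (limma adjusted p = 0.0819).

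Wdr18, the WD repeat subunit, had the smallest gene-mean difference (0.17, 95% interval -0.058 to 0.40, limma adjusted p = 0.286) and 4 probe sets that spread around it. Probe set 1454695_at stood at 0.33 and 0.14 in the knockouts against -0.14 and -0.21 in the wild types. Probe set 1433635_at stood at 0.22 and 0.043 against -0.39 and -0.043. In both, knockout line 2 was the highest line and the genotypes did not overlap, yet neither passed (limma adjusted p = 0.0887 and 0.233).

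The other Wdr18 probe sets gave little difference. At 1460622_x_at, knockout line 4 (-0.031) lay below wild-type line 5 (0.031), so the genotypes overlapped. At 1443758_at the order was turned, with -0.13 and -0.015 in the knockout lines and 0.015 and 0.11 in the wild-type lines, a difference of -0.13 that was not called (limma adjusted p = 0.491). Between 1443758_at and 1454695_at the differences lay 0.54 apart (1443758_at minus 1454695_at, -0.54 ± 0.152 SE), which did not pass in the fit over pairs (limma adjusted p = 0.138).

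Mdn1, the remodelling ATPase, had 3 probe sets, with the larger difference at 1 of them. Probe set 1417675_a_at stood at 0.24 in knockout line 2, 0.43 in knockout line 4, -0.56 in wild-type line 5 and -0.24 in wild-type line 6. Knockout line 4 was the highest line here and the genotypes did not overlap. It was 1.67-fold above the wild type (0.74 ± 0.145 SE, limma adjusted p = 0.0457), close to the threshold.

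Probe sets 1439585_at and 1432675_at of Mdn1 differed by 0.099 and 0.091, and neither was called (limma adjusted p = 0.617 and 0.631). Their differences from 1417675_a_at were 0.64 and 0.65 on the log2 scale, not called in the fit over pairs (limma adjusted p = 0.15 and 0.0896). The mean of the 3 probe sets was 0.11 and 0.16 in the knockouts against -0.22 and -0.13 in the wild types (0.31 ± 0.0855 SE, limma adjusted p = 0.0816). With the median of the 3 probe sets in place of the mean, the difference of Mdn1 was 0.17, and with the 2 plain probe sets (named _at without a further letter) it was 0.095.

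**Figure D2:**
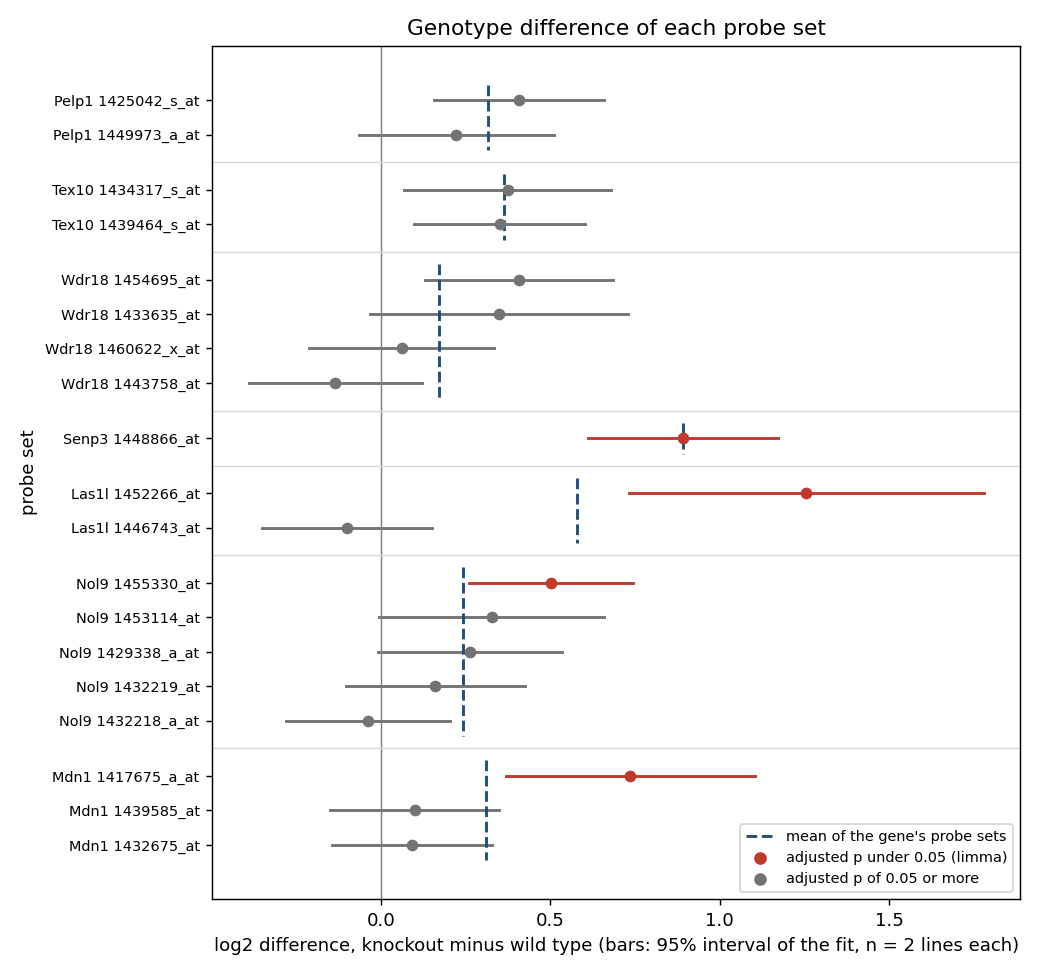
Log2 difference, knockout minus wild type, of each of the 19 probe sets (points) with the 95% interval of the limma fit (bars, n = 2 lines per genotype) and the mean of each gene's probe sets (dashed lines). The 4 probe sets with an adjusted p under 0.05 (red) are those of Senp3 (0.89) and 1 each of Las1l (1.26), Nol9 (0.50) and Mdn1 (0.74), and the intervals of 11 of the other 15 reach below 0.

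Over the 22 pairs of probe sets within the members, 0 were called by limma in the test of the difference between them, beside 0.82% of all pairs. Pairs of the same gene share probe sets, so the 22 are not separate observations. With so small a share called over all pairs, 0 of 22 does not tell whether probe sets of 1 gene differed.

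The order of the lines within a genotype was also compared. Wild-type line 5 was the lowest of the 4 lines in 6 of 7 gene means, against 30.4% of all genes. In 6 of 7 members the gap between the wild-type lines was wider than that between the knockout lines, as it was at 58.5% of all genes. The gaps had medians of 0.17 and 0.053 over the gene means of the members, against 0.12 and 0.095 over all genes, and the knockout lines of Senp3 (0.12) and Wdr18 (0.11) lay further apart than that median of 0.095. Single probe sets of the members showed less of this. Their median gaps were 0.14 between the wild-type lines and 0.10 between the knockout lines, beside 0.14 and 0.11 over all probe sets. The wild-type gap was the wider at 13 of the 19 (57.1% of all probe sets), and line 5 was lowest at 10 of the 19 (29.3%). Without line 5, the differences of the 7 members ran from 0.13 (Wdr18) to 0.81 (Senp3), and without line 6 from 0.19 (Nol9) to 0.98 (Senp3). No member was called with any 1 line left out, in fits that leave 1 line in a genotype. Cycling cell markers showed the same order of the wild-type lines, with list medians of -0.15 in line 5 and 0.15 in line 6 around their mean, and 0.29 and 0.33 in the knockouts. Their part in the members' differences was not tested.

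The genes whose values over the 4 arrays lay nearest to those of Senp3, by Euclidean distance, were BC031181 (0.0126), the mitochondrial ribosomal protein gene Mrpl3 (0.0482), the TFIIH subunit gene Gtf2h1 (0.0527), Hacd1 (0.0616) and Bex3 (0.0683). Nearest to Pelp1 were Xylb (0.00427), Nhlrc1 (0.023), the Gt(ROSA)26Sor transcript (0.0253), the malate dehydrogenase gene Mdh2 (0.0257) and Pidd1 (0.027). The 5 neighbours of Senp3 were called higher and those of Pelp1 were not called, which follows from choosing them by these same values. With 4 arrays, such likeness says only that the values were close.

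Factors of the early pre-60S particle, on or near the ITS2 foot that the complex acts on, were examined next. This list and those after it were chosen with earlier results of these data known, so their called shares are descriptive. Of 12 measured genes, 7 rose, 1 fell and 4 did not pass, a called share of 66.7% beside 12.2% of all genes, with a median difference of 0.63 against -0.0027 over all genes. Nop2, a methyltransferase of 28S rRNA, stood at 0.55 and 0.47 in the knockouts against -0.82 and -0.47 in the wild types. It rose 2.22-fold (1.15 ± 0.138 SE, limma adjusted p = 0.0178). Nifk, a foot protein that binds Ki-67, rose 1.91-fold (0.93), Brix1 1.76-fold (0.82), Nip7 1.57-fold (0.65) and the foot protein Rsl1d1 1.46-fold (0.54). Pes1 (0.70) and Wdr12 (0.61) rose, and they form the PeBoW complex with Bop1, which was not called (0.38, limma adjusted p = 0.122).

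Nop53, the foot protein that brings the RNA exosome to ITS2, went the other way. It stood at -0.19 and -0.21 in the knockouts against 0.18 and 0.21 in the wild types. Both knockout lines were low, and the fall was 1.32-fold (-0.40 ± 0.0791 SE, limma adjusted p = 0.0399). Of the 12 genes of the list, it was the one that fell, and this rests on the probe sets taken. With plain probe sets the difference was 0.0042 (limma adjusted p = 0.987), and with the less variable genes dropped before the fit the call was lost (limma adjusted p = 0.0686). Wdr12 lost its call with the median of its probe sets (0.52, limma adjusted p = 0.0828) and with probe sets of several genes added (limma adjusted p = 0.0509). With any 1 of the 4 lines omitted, none of the 63 genes of this and the 4 following lists was called. Such fits leave 1 line in a genotype.

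Factors of the later steps, from the particle that Mdn1 remodels to nuclear export, included 6 that rose and 0 that fell among 15 measured, with a median of 0.33. The called share was 40.0%, beside 12.2% of all genes. The GTPase nucleostemin, Gnl3, rose 1.98-fold (0.98 ± 0.121 SE, limma adjusted p = 0.0182). The maturation factor Rsl24d1 (0.89), Rrs1, which loads the 5S particle (0.90), the GTPases Gtpbp4 (0.70) and Gnl2 (0.49), and the export adaptor Nmd3 (0.63) also rose. Nle1 is the substrate on which Mdn1 pulls at the later step. Its values were 0.033 and -0.018 in the knockouts against -0.04 and 0.018 in the wild types, with a difference of 0.018 (limma adjusted p = 0.923). Wdr12, the substrate of Mdn1 at the earlier step, was among the genes that rose. The list also held Ltv1, which acts on the small subunit and was not called (0.59, limma adjusted p = 0.0648), though it passed after quantile normalisation (0.55, limma adjusted p = 0.0431). Gnl2 lost its call with plain probe sets (0.40, limma adjusted p = 0.056) and with the less variable genes dropped (limma adjusted p = 0.051).

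Exonucleases and cofactors that trim ITS2 after the cut by Las1l were called at 11.1% (2 higher, 0 lower, 16 not called of 18), a share close to the 12.2% of all genes, with a median of 0.19. The exosome core subunit Exosc9 stood at 0.39 and 0.31 in the knockouts against -0.46 and -0.31 in the wild types, and rose 1.67-fold (0.74 ± 0.0949 SE, limma adjusted p = 0.0188). The exosome nuclease Dis3 rose 1.56-fold (0.64 ± 0.133).

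**Figure D3:**
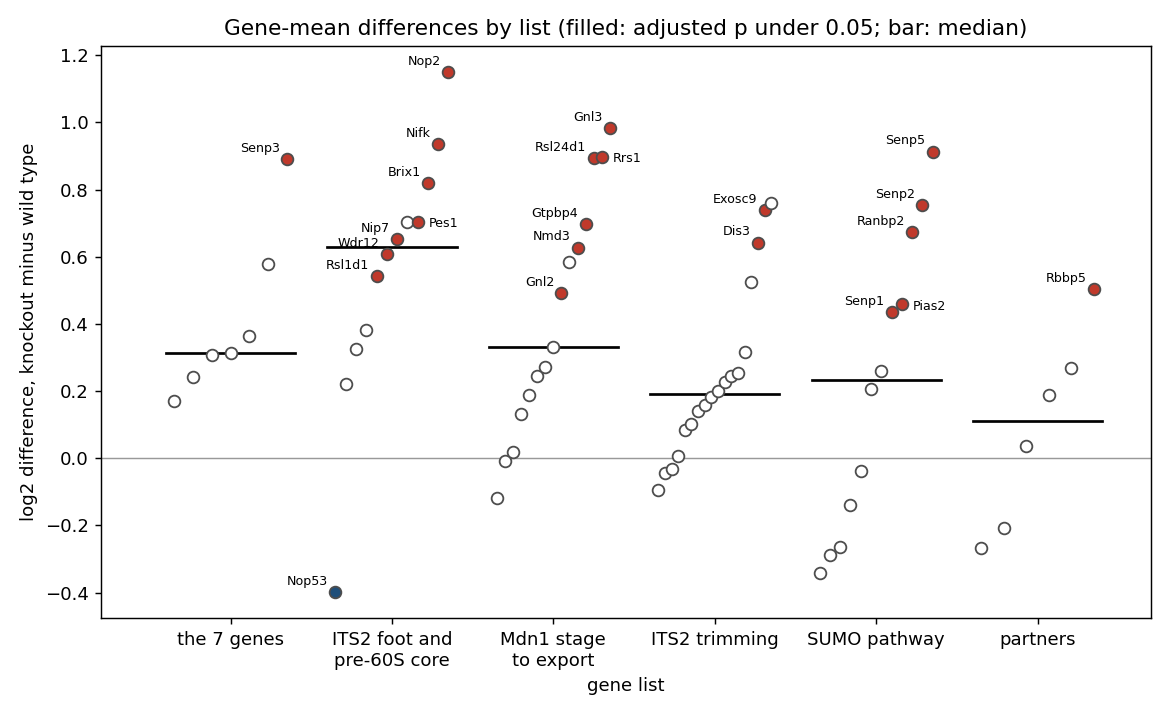
Log2 difference, knockout minus wild type, of every measured gene (points) of the 7-gene set and of the 5 lists of related genes, with filled points for an adjusted p under 0.05 (red higher, blue lower) and bars at the list medians. Senp3 (0.89) is the filled point of the 7-gene set, and Nop53 (-0.40, but 0.0042 with plain probe sets) is the filled point below 0.

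The SUMO pathway was examined because Senp3 belongs to it. Of 12 measured genes of 16 listed, 5 rose, 0 fell and 7 did not pass (41.7% called, beside 12.2% of all genes), with a median of 0.23. With the less variable genes dropped before the fit, 3 were called, without Senp1 and Pias2 (limma adjusted p = 0.0578 and 0.0543). The 5 were the SUMO proteases Senp5, Senp2 and Senp1, the SUMO ligase Pias2 and the nucleoporin Ranbp2, which has SUMO ligase activity. The other Pias genes stood lower in the knockout and were not called (Pias3 -0.29, Pias1 -0.14 and Pias4 -0.037). Both knockout lines lay above both wild-type lines at 7 of the 12 measured genes and below them at 5. Over all 18193 genes, these orders were found at 5222 and 5359. With Senp3, 4 of the 6 SUMO protease genes measured here were called higher, beside 5.21% of all genes.

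Senp5, the other SUMO protease known from the nucleolus, stood at 0.39 and 0.36 in the knockouts, at -0.75 in line 5 and at -0.33 in line 6. It rose 1.88-fold (0.91 ± 0.153 SE, limma adjusted p = 0.0293) with a gap of 0.42 between the wild-type lines. Senp2, found at the nuclear pore, rose 1.69-fold (0.75 ± 0.118 SE, limma adjusted p = 0.0262) and Senp1 1.35-fold (0.43 ± 0.0816 SE, limma adjusted p = 0.0361).

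Senp6 and Senp7, the proteases that trim SUMO chains, were not called by gene mean. Senp6 stood at 0.21 and 0.057 in the knockouts against -0.093 and -0.16 in the wild types (0.26, limma adjusted p = 0.147). Senp7 stood at -0.14 in both knockout lines, against 0.28 and 0.13 in the wild types (-0.34, limma adjusted p = 0.0773). With plain probe sets, Senp7 fell by 0.55 on the log2 scale (limma adjusted p = 0.0393), and Pias2 lost its call (0.34, limma adjusted p = 0.0661). The E1 subunit gene Sae1 (0.21) and Sumo3 (-0.27) were not called either.

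**Figure D4:**
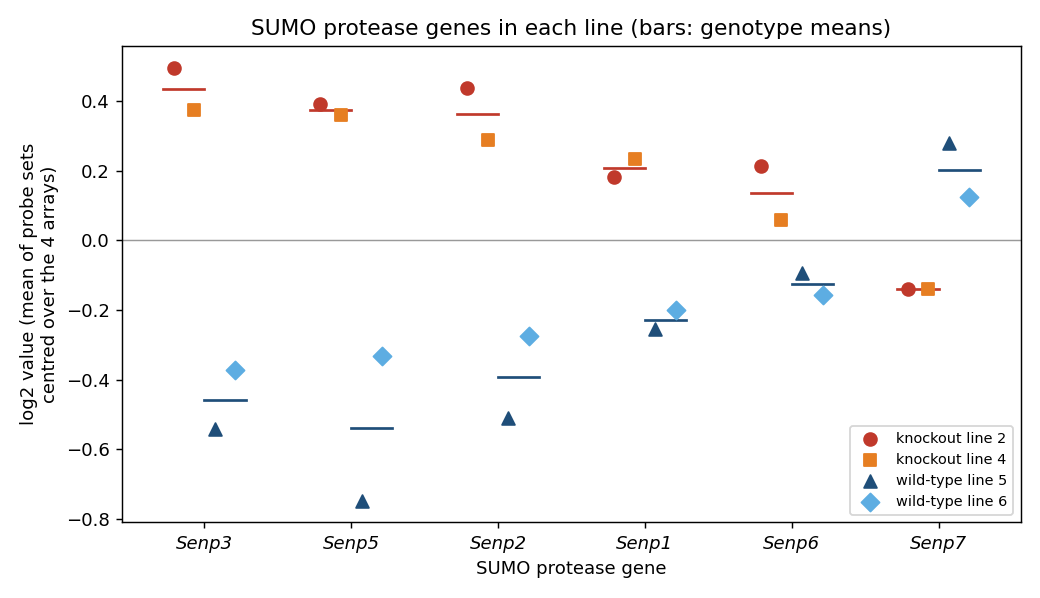
Gene means of the 6 SUMO protease genes measured (centred log2 values, vertical axis) in the 4 lines (knockouts 2 and 4, wild types 5 and 6), with bars at the genotype means. Senp3, Senp5, Senp2 and Senp1 have both knockout lines above both wild-type lines and were called, Senp6 has the same order without a call, and Senp7 the reverse order without a call by gene mean.

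Among 6 reported partners and substrates of Senp3 and the Pelp1 complex, 1 rose and 5 did not pass, a called share of 16.7%, close to the 12.2% of all genes. Rbbp5, a core subunit of histone H3 lysine 4 methyltransferases, stood at 0.19 and 0.31 in the knockouts against -0.33 and -0.19 in the wild types, and rose 1.42-fold (0.50 ± 0.0973 SE, limma adjusted p = 0.0377). The protein arginine methyltransferase Prmt1, which modifies the complex's partner Chtop, had the next smallest p (0.27 ± 0.112, limma adjusted p = 0.195), and Chtop itself had a difference of -0.21 that was not called. Npm1, nucleophosmin, the nucleolar substrate of Senp3, stood at -0.0041 and 0.027 in the knockouts against 0.0041 and -0.053 in the wild types. Its lines overlapped, and the difference was 0.036 (limma adjusted p = 0.831). Cdkn2a, which encodes the Arf protein that binds Npm1, was spread more widely within each genotype, at -0.25 and 0.17 against -0.17 and 0.62.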

How the data were processed

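Total RNA of 4 cultures was labelled with biotin and hybridised to 1 Affymetrix array each. The deposited log2 values were made with Affymetrix Expression Console and the RMA method, as the submitters' processing notes name them, without versions, and the log base follows from that method. The deposited log2 table was centred, with a median of 0 within 1e-06 at 100% of 45101 probe sets, by a step the labels do not describe.

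Control probe sets (64) were left out. Gene means were taken over the 34945 probe sets with 1 gene (932 had several genes and 9160 no gene name), with symbols checked through Entrez identifiers against RefSeq (34754 matched, 0 changed). The genotype difference was estimated in limma 3.58.1 (lmFit, then eBayes; R 4.3.3) with no covariate (2 residual and 3.04 prior degrees of freedom for genes). The fitting code alone was tested on simulated data. The number of arrays limits the precision. All members, their probe sets and Phf12 are named, and from each list of related genes up to 6 called genes with the smallest p or, where fewer than 2 were called, the 2 with the smallest p, and the 5 nearest genes to Senp3 and to Pelp1. Nop53, Bop1, Nle1, Wdr12, Ltv1, Senp6, Senp7, Sae1, Sumo3, Pias1, Pias3, Pias4, Npm1, Chtop and Cdkn2a are named beside these for their roles. Their values were known. The fit over pairs of probe sets was added after the values had been seen. The members and lists were chosen with earlier results of these data known. Scaling, array weights, moderation, a filter on spread, the gene summary and each line left out were varied.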

Additional observations from a re-analysis of the deposited data

How the results depend on the processing

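The line numbers differ between the genotypes. No paired analysis was possible because the groups share no replicate number. Fits on 3 of the lines have 1 residual degree of freedom. In them the difference of Senp3 ranged from 0.81 to 0.98 and was not called. The number of genes called by limma ranged from 0 to 321 (3296 to 5418 at an unadjusted p under 0.05), and limma then called 0 members by gene mean (2 to 5 at an unadjusted p under 0.05), 0 member probe sets (5 to 9) and 0 of the 63 related genes, in each of the 5 lists (25 to 39), against 1, 4 and 22 with all lines. Quantile normalisation called 2 members, adding Las1l (0.65, limma adjusted p = 0.0414). With the less variable genes left out, the SUMO list had 3 called genes in place of 5, and the cause was not tested. Under all alternatives run, each member tested was higher in the knockout (7 of 7, 6 of 6 with the filter, which drops Wdr18, and 5 of 5 with plain probe sets, which drops Pelp1 and Tex10). Nop53 turned to 0.0042 with plain probe sets and was then not called (limma adjusted p = 0.987). The other counts stayed within 1.5 times, although plain probe sets exchanged Pias2 for Senp7, which fell, among the 5 SUMO genes called. Detection over background was not used here, since centred values hold no level.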
